A study of Mus musculus with 12 samples.

Results

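miR-31 is a microRNA, a short RNA that lowers the stability and translation of messenger RNAs that pair with its seed, the stretch of bases near its 5′ end. Its precursor folds into a hairpin, and either arm of the hairpin can be loaded into an Argonaute protein. The strand from the 5′ arm, called miR-31 on these arrays and miR-31-5p in current naming, has been reported in human breast cancer cells to inhibit metastasis, with integrin alpha 5, radixin and RhoA among its reported targets. The strand from the 3′ arm, called miR-31* here and miR-31-3p in current naming, carries a different seed. Both strands were selected by name (mmu-miR-31 and mmu-miR-31* in the array design), as 2 of the 577 mouse miRNAs on the array, each read by 2 probes.

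The series held 12 one-colour Agilent miRNA arrays of 4 mouse mammary cancer cell lines with 3 repeats each. The lines 67NR, 168FARN and 4TO7 are labelled non-metastatic and 4T1 is labelled metastatic. Per the labels, every line is wild type, came from a spontaneous mammary cancer of female Balb/C mice, and 100 ng of Trizol-extracted total RNA went into each labelling reaction. The labels name no treatment. The labels do not say whether repeats were separate cultures, and 1 line alone carries the metastatic label. The p-values therefore weigh differences between lines only against the spread of repeats within lines, which may be technical. That spread was pooled over the 4 lines and drawn toward that of all tested miRNAs. With 3 arrays a line, precision is limited by their number.

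The sequences below are shown because the strands share a hairpin but not a seed. They are from RefSeq (GRCm38.p6), and capitals mark the seed, bases 2 to 8 from the 5′ end.
miR-31: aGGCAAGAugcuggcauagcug
miR-31*: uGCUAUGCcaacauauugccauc
miR-31 lies at chr4:88910614-88910635 on the minus strand and miR-31* at chr4:88910577-88910599 on the same strand. They are 22 and 23 bases long, with GC contents of 54.5% and 43.5%. Among 1679 mature mouse miRNAs in the RefSeq table, 0 others had the seed of miR-31 and 0 others that of miR-31*.

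The hairpin is shown with the arms in capitals, miR-31 first, to place both measured strands in the precursor.
mir-31 hairpin: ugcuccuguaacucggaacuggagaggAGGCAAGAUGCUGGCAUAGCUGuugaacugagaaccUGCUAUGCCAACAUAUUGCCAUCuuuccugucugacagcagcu
It spans 106 bases at chr4:88910557-88910662 on the minus strand of GRCm38.p6. In the structure of lowest energy given by RNAfold (-48.70 kcal/mol), 17 base pairs joined the arms. They took in 6 of the 7 seed bases of miR-31 and all 7 seed bases of miR-31*, and 14 bases lay between the arms. In the same assembly the gene overlaps the long non-coding RNA gene Gm49890. The nearest protein-coding genes are the interferon genes Ifne and Ifna1 on one side, and on the other Mtap, which codes for a methionine salvage enzyme, and Cdkn2a and Cdkn2b, which code for inhibitors of cyclin-dependent kinases.

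The array design places its probes on an older assembly, mm9. The probes for miR-31 target 17 and 16 bases from position 88556518 of chromosome 4, and those for miR-31* target 18 and 19 bases from position 88556481. The targets of a strand's probes overlap, so the probes are not independent readings of it. Each probe had 10 spots, and the brighter probe stood for each strand.

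Signals were scaled to each array's 75th percentile over the 170 probes read on each of the 12 arrays, and levels are log2 of that ratio, with a floor of -5.58 in place of lower values. A miRNA counted as read on an array when at least 1 of its probes had over 50% of its used spots well above background. By that measure 142 to 161 miRNAs were read on the 67NR arrays, 176 to 192 on 168FARN, 148 to 160 on 4TO7 and 166 to 188 on 4T1. Both strands of miR-31 were among the 97 miRNAs read on all 12 arrays. The 67NR arrays stood apart from the others before any comparison. They lay on 1 slide with the first 168FARN array, the other 8 arrays being on a second slide. The hur_5 control spots gave mean signals of 180 to 207 on them against 1.25 to 6.36 on the other 9 arrays. Their 75th percentiles used for scaling were also the lowest, at 358 to 460 units against 600 to 1213 on the other 9. The part of the slide in the results was read only through the within-slide and slide-block values given below. The high hur_5 signals and low percentiles went with the line 67NR. This held within the first slide too, where the 168FARN array had a hur_5 signal of 1.25. Their part therefore cannot be told apart from that of the line.

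miR-31 was low in 67NR. After the scaling described above it was more than 10-fold higher in each of the other lines, including both others labelled non-metastatic. The size of its difference depended on the processing, from 2.65 to 4.88 (log2) over the alternatives run. Its processed signal was 80.3, 77.3 and 62.2 units on the 67NR arrays and 2215, 1754 and 1420 units on the 168FARN arrays. It was 1364, 1414 and 1565 units on the 4TO7 arrays and 2219, 2291 and 1927 units on the 4T1 arrays. Every 67NR array lay below every other array. In bulk RNA, fewer cells that express a miRNA and less of it per cell cannot be told apart.

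After scaling, the level of miR-31 in 67NR was -2.52, -2.53 and -2.53 (mean -2.53 ± 0.0076, SD, n = 3). It was 0.87, 0.92 and 0.84 in 168FARN (0.88 ± 0.037) and 1.19, 1.20 and 1.22 in 4TO7 (1.20 ± 0.018). In 4T1 it was 1.02, 1.01 and 1.12 (1.05 ± 0.059). The order from high to low was 4TO7, 4T1, 168FARN and 67NR, and under this scaling the arrays of neighbouring lines in that order did not overlap. That was common on these arrays, since 67.6% of the tested miRNAs did not overlap between 4T1 and 4TO7, 76.4% between 4T1 and 168FARN, and 86.7% between 168FARN and 67NR. For the other pairs of lines this share was 81.3% (4T1 and 67NR), 80% (4TO7 and 67NR) and 72.9% (4TO7 and 168FARN).

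miR-31* was likewise lowest in 67NR. Its signal was 26.4, 29.8 and 24.4 units on the 67NR arrays, where the lowest signal called well above background was 13.3 to 18.5 units. It was 638, 482 and 378 units on the 168FARN arrays and 433, 467 and 482 units on the 4TO7 arrays. On the 4T1 arrays it was 657, 686 and 566 units. The strand was thus read close to the detection limit in 67NR and far above it elsewhere.

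The scaled level of miR-31* in 67NR was -4.12, -3.91 and -3.88 (mean -3.97 ± 0.13, SD, n = 3). It was -0.93, -0.95 and -1.06 in 168FARN (-0.98 ± 0.074), and -0.47, -0.40 and -0.48 in 4TO7 (-0.45 ± 0.045). In 4T1 it was -0.74, -0.73 and -0.65 (-0.71 ± 0.048). After this scaling its order was that of miR-31, with 67NR far below the rest and no overlap between neighbouring lines. Levels of the strands are not set against each other, since the probes differ in sequence.

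**Figure D1:**
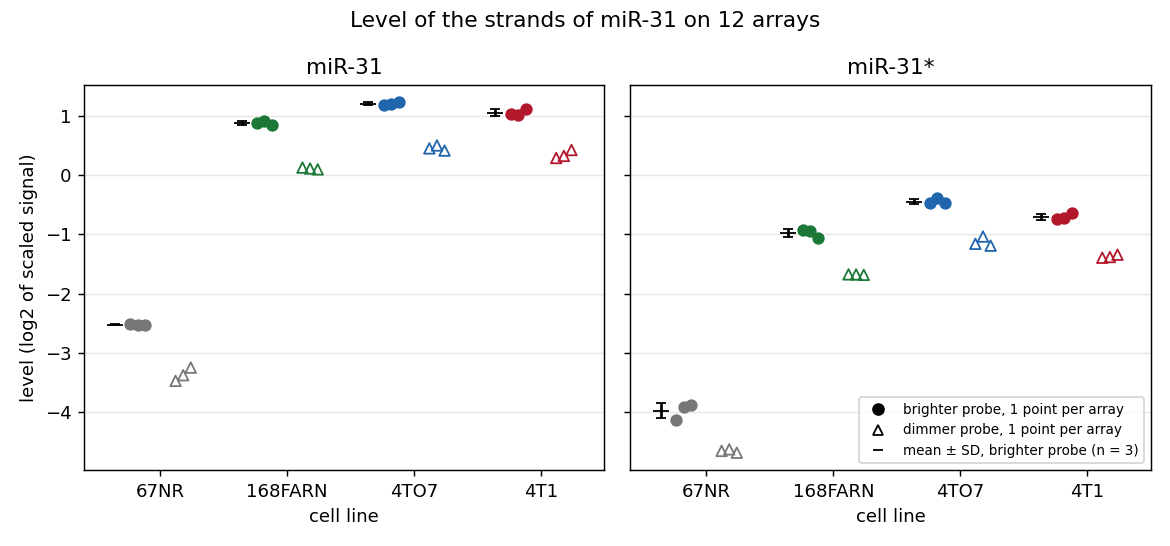
Level of miR-31 (left) and miR-31* (right) on a log2 scale in the 4 cell lines, 1 point per array, for the brighter (filled circles) and the dimmer probe (open triangles), with the mean ± SD of the brighter probe (n = 3). Both probes of both strands were lowest in 67NR, and the other 3 lines lay close together, at 0.88 to 1.20 for miR-31 and -0.98 to -0.45 for miR-31*.

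The spread of replicate spots within an array was also larger where the signal was low. For the miR-31 probe the coefficient of variation was 3.15 to 8.38% on the 67NR arrays and 0.626 to 4.01% on the other 9. For the miR-31* probe it was 10.8 to 27.9% on the 67NR arrays and 3.48 to 15.5% on the others. The dimmer miR-31* probe was at the limit in 67NR, with 2 of 8, 9 of 10 and 5 of 9 used spots well above background on the 3 arrays. Its signals there were 18.3, 18.1 and 14.0 units, against 416, 435 and 350 units on the 4T1 arrays. The dimmer miR-31 probe gave 41.4, 43.1 and 37.7 units on the 67NR arrays and 1335, 1418 and 1188 units on the 4T1 arrays, again with no overlap. Read by the dimmer probe, a choice made after seeing the data, 4T1 exceeded 67NR by 3.71 for miR-31 (log2). The dimmer miR-31* probe counted as read on 2 of the 3 67NR arrays, and no difference is given for it.

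The first comparison sets the metastatic line 4T1 against 67NR. miR-31 was higher in 4T1 by 3.57 ± 0.033 (log2, SE), which is 11.9-fold (limma, Benjamini-Hochberg adjusted p = 1.78e-15, higher on 3 of 3 arrays). The difference of miR-31* was 3.27 ± 0.063, or 9.62-fold (limma adjusted p = 5.73e-13). Of the 225 miRNAs tested, 79.6% were called in this comparison and 32% were called higher in 4T1, while the median difference was -0.05. As measured, miR-31 had the 11th highest difference of the 225 and miR-31* the 16th. Measured values under the floor were raised to it, which lowers a difference from 67NR where 67NR alone was floored. On the 67NR arrays the lowest scaled signal well above background was 0.0297 to 0.0402, above the floor of 0.0209 on that scale. A miRNA not read in 67NR could therefore lie above the floor there, so its difference is not a strict lower bound. These ranks and those against 67NR given next are as measured, and could move either way.

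The non-metastatic lines 4TO7 and 168FARN exceeded 67NR to a similar extent. In 4TO7 minus 67NR, where 79.6% of the miRNAs were called and 31.6% were called higher, miR-31 differed by 3.73 ± 0.033 or 13.3-fold (limma adjusted p = 9.7e-16). miR-31* differed there by 3.52 ± 0.063 or 11.5-fold (limma adjusted p = 2.94e-13). They had the 12th and 15th highest differences, and the median of all tested miRNAs was -0.15. In 168FARN minus 67NR, with 88% called and 40% called higher, miR-31 differed by 3.40 ± 0.033 or 10.6-fold (limma adjusted p = 2.48e-15). miR-31* differed by 2.99 ± 0.063 or 7.95-fold (limma adjusted p = 1.07e-12), and the strands ranked 18th and 26th. These 3 comparisons share the 67NR arrays.

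The first 168FARN array shares a slide with the 67NR arrays, so this difference could be read within 1 slide. There it was 3.39 for miR-31 (limma adjusted p = 4.1e-06) and 3.04 for miR-31* (limma adjusted p = 0.00164), with 1 168FARN array against 3 of 67NR, the lone array being assumed to vary like the others. With the slide as a block, 4T1 minus 67NR was 3.56 for miR-31 and 3.34 for miR-31*. Background handling moved the size more. With normexp background correction the difference of 4T1 from 67NR was 2.82 for miR-31 and 1.78 for miR-31*, under a median of -0.62 over all tested miRNAs, and without scaling it was 4.88 and 4.57 under a median of 0.11. The direction and the call held in both.

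Among the 3 lines with high levels the differences of miR-31 were at most 0.33 in size under the scaling used above, and they depended on that scaling, reaching 0.57 without it. 4TO7 exceeded 168FARN by 0.33 for miR-31 (95% interval 0.25 to 0.40, 1.25-fold, limma adjusted p = 3.74e-06) and by 0.53 for miR-31* (0.39 to 0.67, 1.45-fold, limma adjusted p = 1.42e-05). In that comparison 74.2% of the miRNAs were called and 35.1% were called higher in 4TO7. The order of these lines turned without scaling, where the differences were -0.29 and -0.09. The median of all tested miRNAs was then -0.49, so relative to it the strands stayed 0.20 and 0.41 higher in 4TO7.

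4T1 exceeded 168FARN by 0.17 for miR-31 (95% interval 0.10 to 0.25, 1.13-fold, limma adjusted p = 0.000665) and by 0.27 for miR-31* (0.13 to 0.42, 1.21-fold, limma adjusted p = 0.00221). Here 73.8% of the miRNAs were called and 34.2% were called higher in 4T1. The direction held under every alternative tried, but the call of both strands was lost without scaling, at 0.28 and 0.38, and with the scanner software's summed gene signal, at 0.06 and 0.15. Most of the tested miRNAs were called here, so the calls of both strands do not set them apart. On the second slide alone, the differences were 0.17 and 0.30, and those of 4TO7 from 168FARN were 0.32 and 0.56.

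4T1 lay below 4TO7 by 0.15 for miR-31 (95% interval of the difference -0.23 to -0.08, limma adjusted p = 0.00188) and by 0.26 for miR-31* (-0.40 to -0.12, limma adjusted p = 0.00439). In that comparison 60.4% of the miRNAs were called, and 35.6% were called lower in 4T1. This order depended on the scaling. 4T1 minus 4TO7 became 0.13 and 0.02 when scaled to the 75th percentile of all probes and 0.57 and 0.46 without scaling, and for miR-31 0.05 after quantile normalization. For miR-31* quantile normalization kept 4T1 lower, at -0.13, but without a call (limma adjusted p = 0.114). The order of these lines was therefore not settled for either strand.

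**Figure D2:**
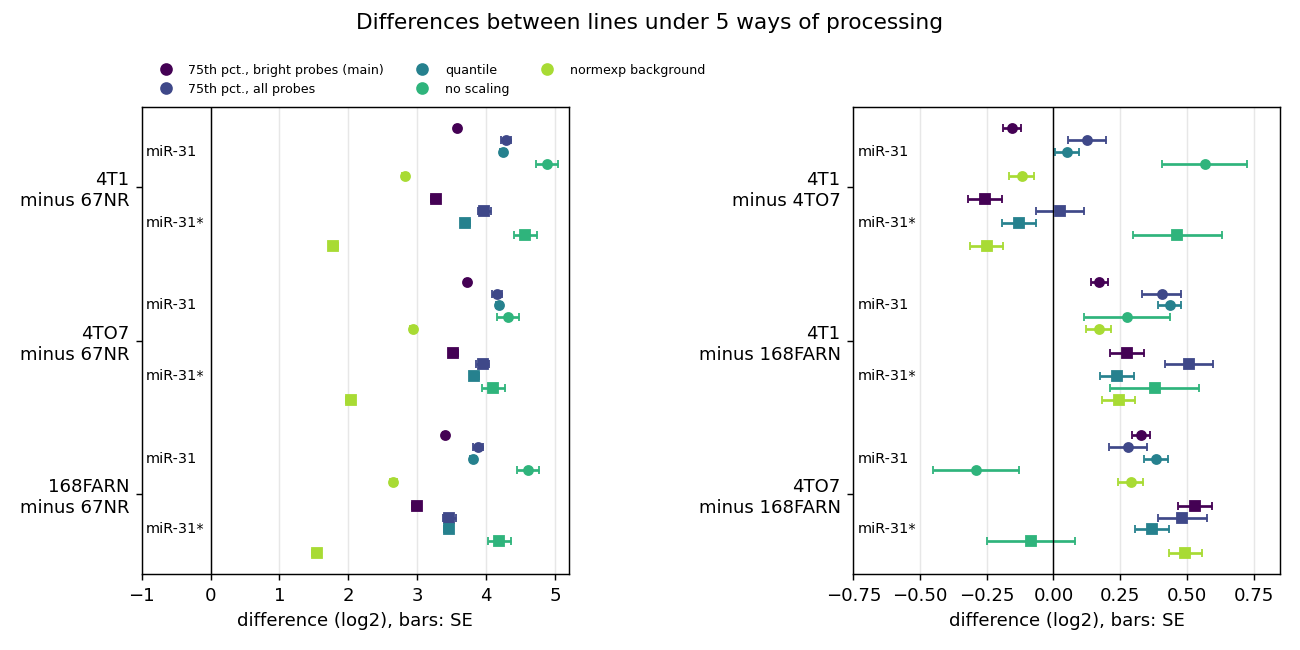
Difference between lines (log2, bars ± SE) for miR-31 (circles) and miR-31* (squares) under 5 ways of processing, for 3 comparisons with 67NR (left) and 3 among the other lines (right, expanded axis). All differences from 67NR lie between 1.54 and 4.88, whereas those of 4T1 from 4TO7 run from -0.26 to 0.57, on both sides of 0.

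The labels set 4T1, as the metastatic line, against the 3 non-metastatic lines. Against their mean, miR-31 was higher in 4T1 by 1.20 ± 0.027 (2.29-fold, limma adjusted p = 7.83e-12) and miR-31* by 1.09 ± 0.052 (2.14-fold, limma adjusted p = 3.19e-09). In this comparison 87.6% of the miRNAs were called and 28% were called higher, with a median of -0.34. Under the main scaling the 4T1 arrays did not lie beyond the other 9, because the 4TO7 arrays were higher for both strands. Only 17.3% of the tested miRNAs then had 4T1 arrays beyond all others, and neither strand of miR-31 was among them. That depended on the scaling, since 4T1 had the highest mean of both strands without scaling and when scaled over all probes. Without the 67NR arrays, an alternative chosen after seeing the data, the difference was 0.0090 for miR-31 (limma adjusted p = 0.843) and 0.0093 for miR-31* (limma adjusted p = 0.906).

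Since both strands come from 1 hairpin, their ratio was followed within each array. miR-31 minus miR-31* was 1.60, 1.38 and 1.35 (log2) on the 67NR arrays, 1.80, 1.86 and 1.91 on 168FARN, 1.66, 1.60 and 1.70 on 4TO7, and 1.76, 1.74 and 1.77 on 4T1. The offset itself depends on the probes, and only its change between lines is used. The 168FARN arrays had the highest ratios of all, and the 67NR arrays overlapped those of 4TO7.

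The ratio was higher in 4T1 than in 67NR by 0.31 ± 0.063 (log2, SE, limma over 37 strand pairs, adjusted p = 0.000879), and 75.7% of the pairs were called. It was higher than in 67NR by 0.41 in 168FARN (limma adjusted p = 9.72e-05, 89.2% called) and by 0.21 in 4TO7 (limma adjusted p = 0.0109, 75.7% called). It was lower in 4TO7 than in 168FARN by a log2 difference of -0.20 (limma adjusted p = 0.0124, 75.7% called). The other changes did not pass, at -0.10 ± 0.063 for 4T1 minus 168FARN (limma adjusted p = 0.185, 67.6% called), 0.10 ± 0.063 for 4T1 minus 4TO7 (limma adjusted p = 0.252, 40.5% called) and 0.10 for 4T1 minus the mean of the others (limma adjusted p = 0.0909, 78.4% called).

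Processing mattered more for the ratio than for the strands. With normexp background correction, the ratio change from 67NR to 4T1 was 1.04, and with the slide as a block it was 0.22 (limma adjusted p = 0.119) and that from 67NR to 4TO7 0.12 (limma adjusted p = 0.378). The change from 67NR to 168FARN was 0.35 with the block and 0.35 within the first slide, where it did not pass (limma adjusted p = 0.141). Quantile normalization took the change from 168FARN to 4TO7 to 0.02. Without the first 67NR array, whose ratio was the highest of its line, 4T1 minus 168FARN passed at -0.10 (limma adjusted p = 0.0471) and 4T1 minus the mean of the others at 0.13 (limma adjusted p = 0.00498).

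In 4T1 minus 67NR the differences of both strands had the same sign in 31 of 37 pairs, counting pairs with 0 for both. The strands of miR-31 were among these. Their ratio change between 67NR and 4T1 was the 27th in size of 37, and the median size was 0.62, with bounds included where a strand was at the floor. Pairs with both strands at the floor in both lines, such as miR-199b with miR-199b*, have a change of 0. They rank below miR-31 and lower that median without being measured. Among the 7 pairs with both strands read on all 12 arrays the change of miR-31 was the 5th, and the median was 0.46. The widest change was that of miR-17 and miR-17*, strands of the proliferation-linked miR-17-92 cluster, at -6.00, though not both of these strands were read on every array. The neighbours of miR-31 in size among the 7 pairs were miR-140 with miR-140* at -0.46 and miR-30e with miR-30e* at 0.27.

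**Figure D3:**
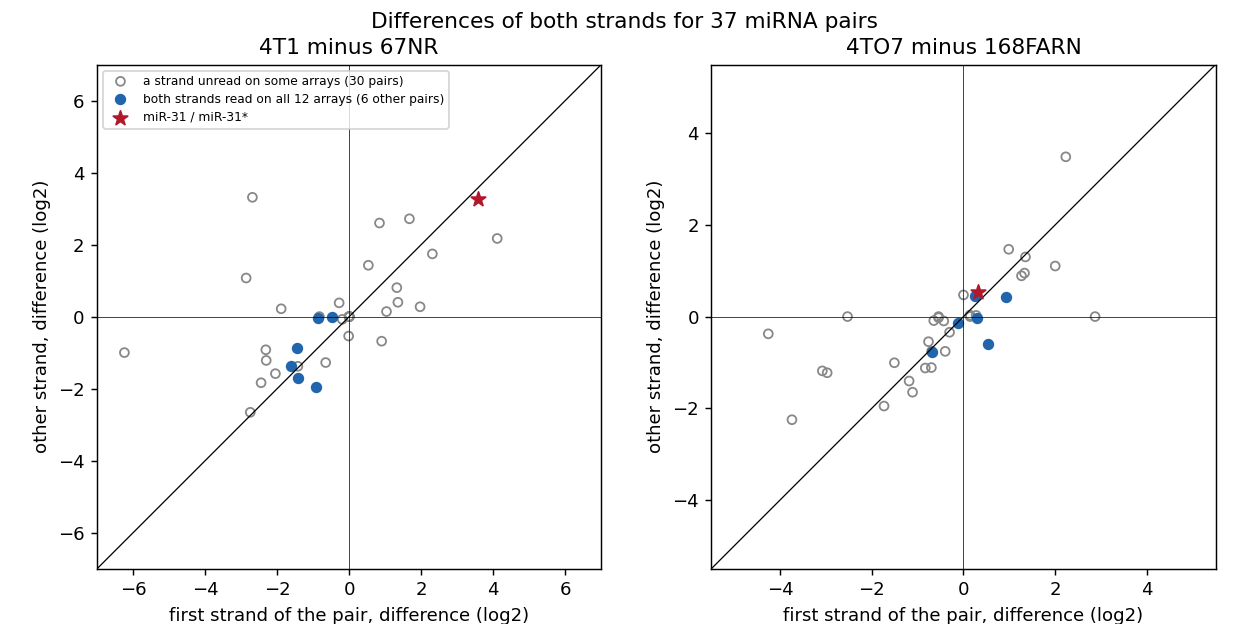
Difference of the first strand (horizontal) and the other strand (vertical) of 37 miRNA pairs, log2, for 4T1 minus 67NR (left) and 4TO7 minus 168FARN (right), with the diagonal of equal change. The star of miR-31 and miR-31* lies near the diagonal in both panels, at 3.57 and 3.27 on the left and 0.33 and 0.53 on the right.

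The miRNAs whose line means ran most like those of miR-31 were sought among the other 96 read on all arrays. Each profile was centred on its own mean over the 4 lines, and likeness is the root mean square of the 4 gaps, given as a description. miR-31* was the closest to miR-31 at 0.15, and miR-31 the closest to miR-31*. Next to miR-31 came miR-21, a miRNA reported as raised in many human tumours, at 0.32, then miR-23a at 0.35, let-7c, a member of the let-7 family of growth-restraining miRNAs, at 0.44, and miR-27a at 0.47. miR-23a and miR-27a come from 1 cluster. Next to miR-31* came miR-23a at 0.31, miR-27a at 0.40, miR-100 at 0.40 and miR-21 at 0.45.

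All of these were lowest in 67NR. Relative to its own mean, miR-31 was at -2.68 in 67NR, 0.73 in 168FARN, 1.05 in 4TO7 and 0.90 in 4T1. miR-21 was at -2.97, 1.11, 0.71 and 1.14 in the same order of lines. miR-23a was at -2.27, 0.93, 0.96 and 0.38. These profiles part among the 3 high lines, where miR-21 was lowest in 4TO7 and miR-23a was lowest in 4T1.

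The choice of lines set the neighbours. Over 168FARN, 4TO7 and 4T1 alone, the closest to miR-31 were miR-365 and miR-15b at 0.03, let-7d at 0.04, miR-7a* at 0.08 and miR-31* at 0.08. Of these, let-7d was also low in 67NR, at -3.58 relative to its own mean over the 4 lines, whereas miR-15b was highest there, at 0.65. For miR-31* they were miR-9 at 0.03, miR-7a* at 0.07, miR-720 at 0.08, miR-31 at 0.08 and miR-320 at 0.11. Over these 3 lines the profile range is small, and the order of likeness rests on gaps of the size of replicate SDs.

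**Figure D4:**
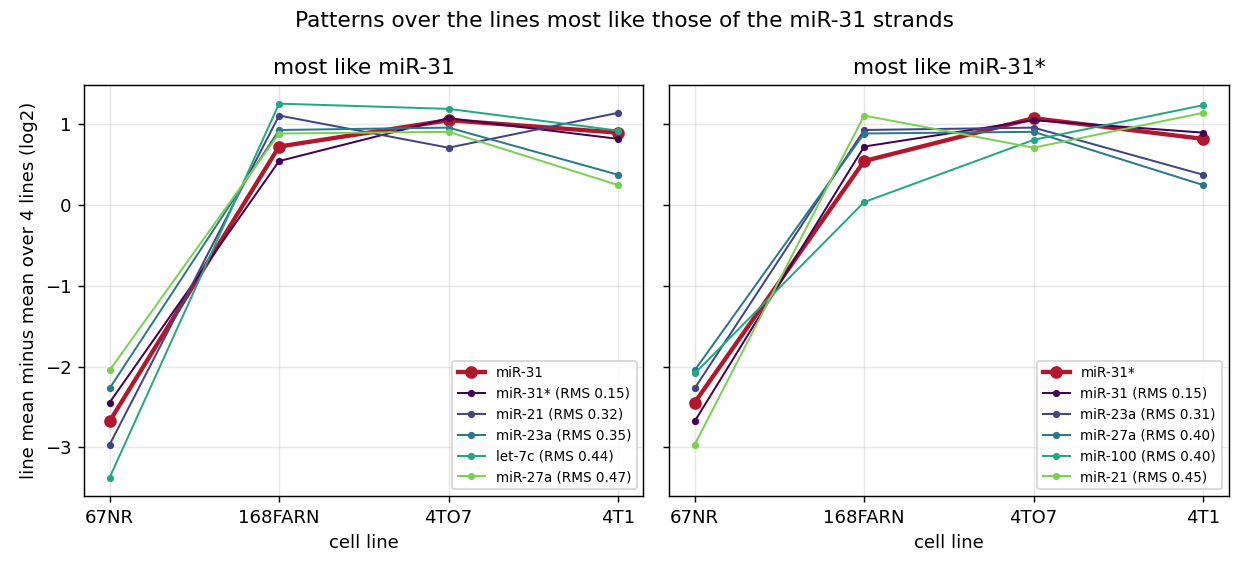
Line means relative to the miRNA's own mean over the 4 lines (log2) for miR-31 (left, thick line) and miR-31* (right, thick line), with the 5 miRNAs closest to each by root mean square gap (RMS). Each profile is lowest in 67NR, and they separate in 168FARN, 4TO7 and 4T1.

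Few other miRNAs of chromosome 4 were read near the locus, by the mm9 positions of their probes. miR-491, at 0.788 Mb, and miR-455, at 25.6 Mb, were read on no array. miR-872, at 5.78 Mb, was read on no 67NR array and on all arrays of the other lines, with levels of -3.91 ± 0.14 in 168FARN, -4.32 ± 0.12 in 4TO7 and -4.65 ± 0.084 in 4T1 (SD, n = 3). Its order among those lines differed from that of miR-31, with 168FARN highest, and miR-872* was read on no array. The lowest scaled signal well above background was higher on the 67NR arrays (0.0297 to 0.0402) than on the others (0.0110 to 0.0251). A weak miRNA such as miR-872 was therefore less readily read in 67NR.

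miR-31 was then placed among 17 miRNAs on the array that have been reported as suppressors of metastasis, a list chosen with earlier results of these data known. Of these, 9 were tested and 6 were read on no array, namely miR-335-5p, miR-145, miR-205, miR-200a, miR-200b and miR-429. Besides miR-31, only miR-7a and miR-29b were read on all 12 arrays. In 4T1 minus 67NR, 3 of the 9 were higher, 4 were lower and 2 did not pass. Of all tested miRNAs 32% were called higher and 47.6% lower. The 2 that did not pass, miR-206 and miR-146b, were set to the floor in both lines, although miR-146b counted as read on 2 of 3 4T1 arrays. Their difference of 0 was the median of the list, against -0.05 for all tested miRNAs, so that median is set by the floor. miR-146a, 1 of the 3 higher, was at the floor in 67NR. It was higher in 4T1 by only 0.19 (log2), at a level of -5.39, close to the floor of -5.58. In 4T1 minus the mean of the other lines 3 were higher and 6 lower, with a median of -0.55 against -0.34, where 28% of all tested miRNAs were called higher and 59.6% lower.

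The members of the list did not share the pattern of miR-31. miR-29b, reported to restrain matrix genes, was at -0.15 in 67NR, 3.25 in 168FARN, 2.55 in 4TO7 and 2.15 in 4T1, so that it too was lowest in 67NR but highest in 168FARN. miR-34a, a p53 target that slows the cell cycle, ran the other way, from 0.97 in 67NR to -0.92 in 168FARN and -3.90 in 4T1, and was not read in 4TO7. miR-7a, a homologue of the human miR-7 reported to lower growth factor receptor signalling, was at -0.82, -1.62, -0.69 and -2.27 in the order of 67NR, 168FARN, 4TO7 and 4T1. The other 5 tested members (miR-126-3p, miR-206, miR-146a, miR-146b and miR-193b) were each below detection on every array of at least 1 line, and miR-200c and miR-141 were each read on 1 array only. In 4TO7 minus 67NR, 4 of the 9 were higher and 2 lower, and in 168FARN minus 67NR 4 were higher and 4 lower, while 48% of all tested miRNAs were called lower in each of these.

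Among the 3 lines high in miR-31, the counts were 3 higher and 5 lower in 4T1 minus 168FARN, 2 higher and 5 lower in 4T1 minus 4TO7, and 5 higher and 4 lower in 4TO7 minus 168FARN. Of all tested miRNAs 39.6% were called lower in 4T1 minus 168FARN and 39.1% in 4TO7 minus 168FARN, and 24.9% were called higher in 4T1 minus 4TO7. miR-31 was the median of the list in 4TO7 minus 168FARN, at 0.33, and in 4T1 minus 4TO7, at -0.15.

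Markers of cell types were read beside these values. Of 7 epithelial miRNAs (the miR-200 family, miR-205 and miR-203), 0 were read on all arrays of any line, and only miR-200c and miR-141 were read at all, on 1 67NR array each. The defining miRNAs of epithelium were therefore at or near the floor in all of these mammary cancer lines. The mesenchymal miRNAs miR-199a-5p, miR-199b and miR-143 were read on all arrays of 168FARN and of no other line, with miR-199b also on 1 4T1 array, and miR-140 was read in all lines, while miR-214 and miR-145 were read nowhere. miR-142-3p of blood cells and miR-206 of muscle were read in 168FARN alone, and the other 3 miRNAs of each of these lists nowhere.

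The endothelial miR-126-3p moved against miR-31, with levels of -1.96 in 67NR, -4.74 in 4TO7 and -4.64 in 4T1 and no reading in 168FARN, and its partner miR-126-5p was read nowhere. Its part in the differences of miR-31 was not tested. Apart from miR-126-3p, the marker lists gave no reading that set 67NR apart from all 3 other lines on every array, which is where miR-31 differed. Many markers could not have done so, since 5 of 7 epithelial, 3 of 4 blood-cell and 3 of 4 muscle miRNAs were read on no array.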

How the data were processed

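The deposited values were the intensity of each spot on 12 arrays. Per the file headers, Feature Extraction 10.2.1.3 had subtracted a detrended background, and the deposited value table equals these processed intensity signals (largest difference 0). No scaling between arrays had been applied. Control spots and 284 to 508 uneven or outlying spots per array were left out, and 0 spots were saturated. The spots of each of 1712 probes were averaged, divided by the array's 75th percentile over 170 bright probes, floored at 0.0209 (log2 -5.58) and log2 transformed. The brightest probe stood for each of 577 miRNAs.

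The 225 miRNAs read on all 3 arrays of at least 1 line were fitted with limma 3.58.1 in R 4.3.3 over all 12 arrays, with 8 residual degrees of freedom. Two-sided p-values were adjusted by Benjamini and Hochberg's method within each of 7 comparisons and called below 0.05. Strand ratios were fitted the same way over 37 pairs whose strands were both tested, and a ratio with a floored strand is a bound. Hairpins were folded with RNAfold 2.7.2, and figures were drawn with matplotlib 3.10.9 in Python 3.11.15. Sequences and gene names came from RefSeq tables of GRCm38.p6.

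miR-31 and miR-31* were named, with the 5 miRNAs nearest in profile, the nearest miRNAs on the chromosome, any sharing a seed, and all members of the suppressor and marker lists. The members and lists were chosen with earlier results of these data known. Alternatives covered scaling, background, probe choice, filter, slide, the lines entered, each array left out and the repeat number as a block. miR-199a-3p, a planned marker, was not analysed here.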

Additional observations from a re-analysis of the deposited data

How the results depend on the processing

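The differences of both strands from 67NR kept their direction and limma call under every alternative run, from 2.65 to 4.88 for miR-31 and from 1.54 to 4.57 for miR-31* (log2). Leaving out 1 array at a time changed no call of either strand. Scaling to the 75th percentile of all probes turned 4T1 minus 4TO7 to 0.13 for miR-31 (adjusted p = 0.174) and 0.025 for miR-31* (adjusted p = 1). Without scaling it was 0.57 (adjusted p = 0.00701) and 0.46 (adjusted p = 0.0274), 4TO7 minus 168FARN was -0.29 (adjusted p = 0.115) and -0.085 (adjusted p = 0.697), and 4T1 minus 168FARN was no longer called at 0.28 (adjusted p = 0.142) and 0.38 (adjusted p = 0.0552). The median of all tested miRNAs then moved to 0.34, -0.49 and 0 in these comparisons, and relative to it 4T1 minus 4TO7 was 0.23 and 0.12. Quantile normalization gave 0.050 (adjusted p = 0.425) and -0.13 (adjusted p = 0.114) for 4T1 minus 4TO7. With the summed gene signal, 4T1 minus 168FARN was 0.060 (adjusted p = 0.424) and 0.15 (adjusted p = 0.107). The next 2 alternatives were chosen after seeing the data. The dimmer probe gave -0.11 for miR-31 in 4T1 minus 4TO7 (adjusted p = 0.113), and without 67NR 4T1 minus the mean of the others was 0.0090 and 0.0093 (adjusted p = 0.843 and 0.906), since its contrast then lacks the low line. The causes of the other changes were not tested.

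The strand ratio was less stable. Quantile normalization turned 4T1 minus 168FARN to 0.20 (adjusted p = 0.0613) and 4TO7 minus 168FARN to 0.016 (adjusted p = 0.851), and without 67NR 4T1 minus the mean was -0.00023 (adjusted p = 0.995). With the slide as a block, 4T1 minus 67NR was 0.22 (adjusted p = 0.119) and 4TO7 minus 67NR 0.12 (adjusted p = 0.378). The first slide alone gave 0.35 for 168FARN minus 67NR (adjusted p = 0.141), and a fit of only the lines compared 0.21 for 4TO7 minus 67NR (adjusted p = 0.0726). 4T1 minus the mean became called with quantile normalization (0.31), normexp (0.37), the summed gene signal (0.13), the mean of all probes (0.13) and the dimmer probe (0.16, with miR-31* read on 2 of 3 67NR arrays), and ran from 0.088 to 0.13 when 1 array was left out. 4T1 minus 4TO7 became called with normexp (0.13) and the mean of all probes (0.12). 4T1 minus 168FARN became called with the mean of all probes (-0.087), on the second slide alone (-0.13) and with only the lines compared (-0.10), and ran from -0.13 to -0.076 when 1 array was left out.

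Restricted to the 97 miRNAs read on all 12 arrays, a smaller set by construction, 88 were called in 4T1 minus 67NR, 78 in 4T1 minus 168FARN, 71 in 4T1 minus 4TO7, 87 in 4TO7 minus 67NR, 75 in 4TO7 minus 168FARN, 92 in 168FARN minus 67NR and 83 in 4T1 minus the mean, against 179, 166, 136, 179, 167, 198 and 197 of 225. Repeat numbers did not pair the arrays, as 6 of 18 same-number correlations of deviations exceeded 0.1 (range -0.776 to 0.511) and 2 of 12 arrays correlated best with their own number. With the replicate block 179, 165, 134, 178, 163, 195 and 196 were called, 4T1 minus 4TO7 of miR-31 was -0.15 (adjusted p = 0.00537), and no call of either strand changed. Signal over background limits miR-31* in 67NR.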
